A study of Mus musculus with 2 samples.

Results

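mmu-miR-1224, mmu-miR-188-5p, mmu-miR-671-5p, mmu-miR-680, mmu-miR-721, mmu-miR-1892, mmu-miR-1894-3p, mmu-miR-1897-3p and mmu-miR-1897-5p (written without mmu from here on) are 9 of the 696 mouse miRNAs read by the microarray of this study. They were chosen by their signal on these same arrays, as much brighter in the inter mammary gland region than in the 3rd mammary gland, so that difference is described here without a test. Total RNA came from untreated ICR mouse embryos at E13.5. The inter mammary gland region (called the flank from here on) lies on the body side between glands 3 and 4, and both it and the 3rd mammary gland (called the gland) are dissected tissue that can hold several cell types. From each, 100 ng of RNA was labelled with Cy3 and hybridized to 1 Agilent 1-colour array. The arrays shared 1 slide and 1 scan, and how many embryos gave each RNA is not given in the sources used here. With 1 array for each region there is no replicate check, the number of arrays limits the precision, and the region cannot be told apart from the RNA sample or the dissection.

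A miRNA is cut from a hairpin precursor, and its mature strand guides an Argonaute protein to messenger RNAs that pair with the seed, the bases 2 to 8 from its 5′ end. The opposite strand of the hairpin is often degraded. Most precursors are released by Drosha and then Dicer, whereas mirtrons, to which miR-1224 belongs, are short introns whose ends are made by splicing. miR-188 is 1 of several miRNAs clustered in the X-linked Clcn5 gene, miR-671 is known for directing cleavage of the circular RNA Cdr1as, and miR-721 shares its seed with the miR-130 and miR-301 family.

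The mature sequences are shown because they are what the probes were designed to read and what the members may share beyond their signal. They come from RefSeq (GRCm38.p6), which held 7 of the 9 names exactly, and the seed is in capitals.
miR-188-5p: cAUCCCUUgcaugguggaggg
miR-671-5p: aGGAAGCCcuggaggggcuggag
miR-680: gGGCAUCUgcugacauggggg
miR-721: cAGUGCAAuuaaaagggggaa
miR-1892: aUUUGGGGacgggagggaggau
miR-1894-3p: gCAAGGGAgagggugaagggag
miR-1897-3p: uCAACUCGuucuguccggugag
The array lists miR-1224 without naming a strand, and RefSeq holds both strands of its precursor, so it was left out of the counts of bases.
miR-1224-5p: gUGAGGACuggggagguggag
miR-1224-3p: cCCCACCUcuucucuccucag

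The 7 matched members had 7 different seeds, so they do not form a seed family. RefSeq places miR-188-5p at chrX:7248031-7248051 on the minus strand, within the bounds of Clcn5. miR-671-5p lies at chr5:24592132-24592154 (plus strand) within Chpf2, and miR-721 at chr5:136375777-136375797 (minus strand) within Cux1. miR-1892 lies at chr12:54645943-54645964 (minus strand) within Sptssa, miR-1894-3p at chr17:35917938-35917959 (plus strand) within Ppp1r10, and miR-1897-3p at chr3:34638511-34638532 (plus strand) within the long non-coding RNA gene Sox2ot. The strands of miR-1224 lie at chr16:20604452-20604472 and chr16:20604516-20604536 (plus strand) within Vwa5b2. The sequence of miR-680 is listed at 3 places, chr6:129691541-129691561 (plus strand), chr12:35194849-35194869 (minus strand) and chrX:144297790-144297810 (plus strand), and no other gene of the table spans any of them. The table gives the bounds of a gene only, so exons, introns and UTRs were not assigned.

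G made up a large share of most of these sequences. The share ran from 27.3% in miR-1897-3p to 59.1% in miR-1894-3p, with a median of 47.6% over the 7 matched members against 27.3% over the 192 other matched names of the array. A run of 4 or more G (GGGG, searched on the printed strand only) was present in miR-671-5p, miR-680, miR-721 and miR-1892, which is 4 of the 7, and in 14 of the 192 others (7.29%). In miR-1892 this run lies in the seed. miR-188-5p and miR-1894-3p had a longest run of 3 G and miR-1897-3p of 2. Only 199 of the 696 names of the array (28.6%) matched RefSeq exactly, so a check of base content against the whole array is void. Of the 14 other miRNAs with the run, 8 were detected in neither region, 2 in the flank only and 1 in the gland only. 3 were detected in both, with flank over gland quotients of 0.831 to 1.66, and of these 1 passed 1.5-fold, miR-2861, named here after its value was seen. Of the matched names without the run, other than members, 55 were detected in both regions and 5 of these were higher in the flank by 1.5-fold or more.

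Probes for the 696 miRNAs numbered 1937 and took up 13920 of the 14635 spots, and no miRNA spot was saturated. A spot signal is the intensity after the scanner software subtracted the background, on a linear scale that can go below 0. Detection of a probe required a signal well above background in over 50% of its spots, and detection of a miRNA required 1 such probe. The quotients are of the flank over the gland, each after division by that array's 75th percentile over the probes detected on both. Negative control spots averaged 3.81 ± 5.28 (SD, 432 spots) in the gland and 2.23 ± 5.07 (SD, 428 spots) in the flank, with highest values of 17.3 and 19.2.

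All 9 members were detected in the flank, and 4 of them, miR-1224, miR-188-5p, miR-721 and miR-1897-5p, also in the gland. Detection in the flank only applied to 5 members and to 5.13% of the 312 miRNAs detected on at least 1 array. For those 5 a lower bound was taken, the flank signal over the gland signal or, where that was lower, over the lowest single detected probe of the gland (30.7 before scaling). Each bound holds for the settings used here, and other settings gave lower and higher ones. By ratio or bound, 8 of the 9 were at least 1.5-fold higher in the flank, where 9.94% of the 312 were. All 4 members detected in both regions passed, where 9.15% of the 284 miRNAs detected in both did. None of the 4 was lower by that fold, as 2.11% of the 284 were. These counts follow from how the members were chosen, so nothing is read from them. The median log2 quotient of the 4 was 2.22 (4.65-fold), against -0.05 over the 284, and the median fold over all 9, with 5 of them at their bound, was 2.83. In such bulk RNA, fewer cells of a type and less RNA per cell cannot be told apart.

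**Figure D1:**
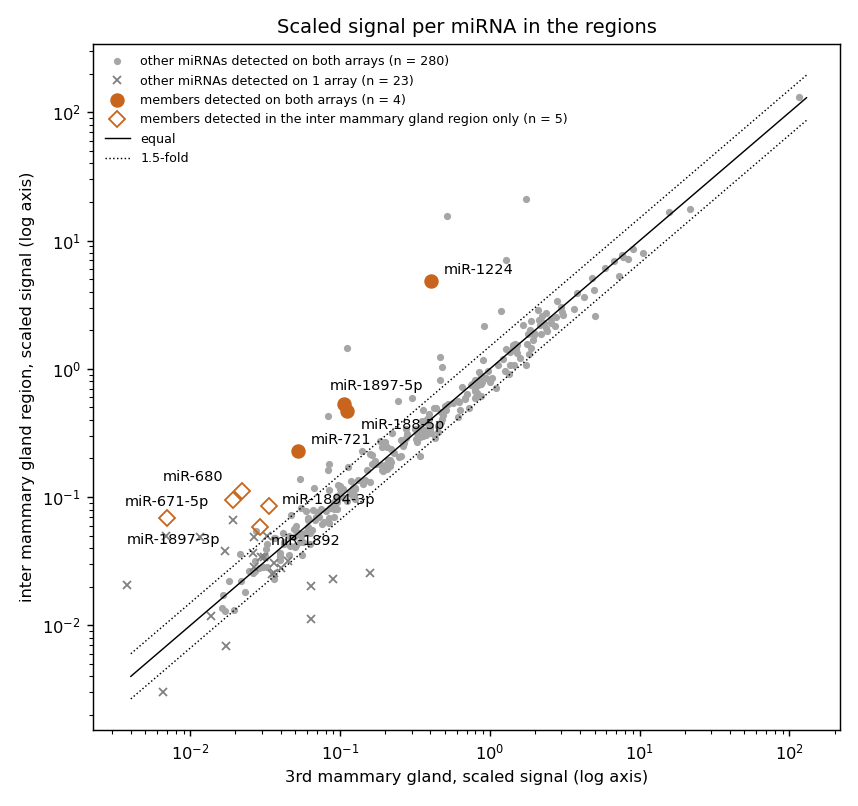
Scaled signal of each miRNA in the gland (x axis) and the flank (y axis), both log axes without units, 1 array per region. The 4 members detected in both regions (filled) and the 5 detected in the flank only (open diamonds) lie above the line of equal signal, and the dotted lines mark 1.5-fold.

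miR-1224, the mirtron, had the highest quotient of the members. Its first probe averaged 173 ± 8.88 (SD, 10 spots, lowest 158, median 177, highest 183) in the gland and 2418 ± 126 (SD, 10 spots, lowest 2271, median 2429, highest 2636) in the flank. Its second probe averaged 466 ± 42.3 (SD, 10 spots, lowest 406, median 458, highest 533) and 4542 ± 354 (SD, 10 spots, lowest 4104, median 4490, highest 5184). The spots of the regions did not overlap on either probe, which describes a member chosen for this difference. After scaling, every probe was apart in this way for 12.8% of the 312 miRNAs detected on at least 1 array. Averaged over the probes the signal was 319 ± 6.84 (SE over 20 spots) in the gland and 3480 ± 59.4 (SE over 20 spots) in the flank. The quotient of miR-1224 was 11.9 (log2 3.58, SE over spots 0.040), the fourth highest among the 284 miRNAs detected in both regions.

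The probes of miR-1224 gave different quotients, 15.3 for the first and 10.7 for the second. On the log2 scale they were 0.52 apart, with an SE over spots of 0.064. Over the 244 miRNAs for which both arrays detected more than 1 probe, the highest probe quotient was a median of 1.06 times the lowest and the 90th percentile was 1.19. For miR-1224 it was 1.43 times, the fourth largest, so its probes were further apart than those of most miRNAs on these arrays, with both above 1.

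miR-188-5p, from the Clcn5 cluster, was read by 4 probes of 5 spots each. Its 20 spots ran from 78.9 to 99.0 in the gland and from 307 to 370 in the flank, and its probe means from 84.0 to 93.3 and from 314 to 346. The groups of spots were far apart on every probe, again in a member chosen for this difference. The quotient was 4.24 (log2 2.08, SE over spots 0.018), and the 4 probes gave 4.05 to 4.43.

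miR-721, which carries the miR-130 and miR-301 seed, had a quotient close to that of miR-188-5p. The probe means were 36.4 to 45.8 in the gland, where the 20 spots ran from 32.2 to 50.1, and 162 to 172 in the flank, where they ran from 149 to 180. All 20 spots were well above background in each region. The quotient was 4.35 (log2 2.12, SE over spots 0.043), and the probes gave 3.87 to 4.90. The highest probe quotient was 1.27 times the lowest (0.34 apart on the log2 scale, SE over spots 0.11). This was rank 13 among the 244 miRNAs with more than 1 probe detected on both arrays, above their 90th percentile of 1.19. The number of probes differs between miRNAs, and such a range grows with that number and with dim signals. The SE is that of the extreme pair of probes, picked by its values. The rank is therefore not a like comparison. RefSeq lists miR-130a-3p, miR-130b-3p, miR-130c, miR-301a-3p, miR-6341 and miR-6389 with the same seed, AGUGCAA, but the array holds none of these names in this form. Under older names that give no strand, and so were not matched to a sequence here, the array lists miR-130a, miR-130b, miR-301a and miR-301b. All 4 were detected in both regions, with quotients of 1.01, 0.950, 0.967 and 0.810.

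The strands of the miR-1897 precursor were both higher in the flank than in the gland but differed in level and in detection. miR-1897-5p averaged 83.7 ± 6.30 (SD, 9 spots) and 83.4 ± 7.86 (SD, 10 spots) on its probes in the gland, and 383 ± 7.39 and 376 ± 9.05 (SD, 9 spots each) in the flank. Its quotient was 4.97 (log2 2.31, SE over spots 0.029), and its probes, at 5.01 and 4.94, differed by less than their error. miR-1897-3p averaged 5.12 ± 4.15 and 5.83 ± 5.03 (SD, 10 spots each) in the gland, with 0 of 20 spots above the brightest negative control spot. In the flank it averaged 48.8 ± 2.83 (SD, 10 spots) and 49.4 ± 3.08 (SD, 9 spots), with all 19 kept spots above every negative control spot. It was at the level of the negative controls in the gland and clear of them in the other region, at least 1.75-fold higher there.

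**Figure D2:**
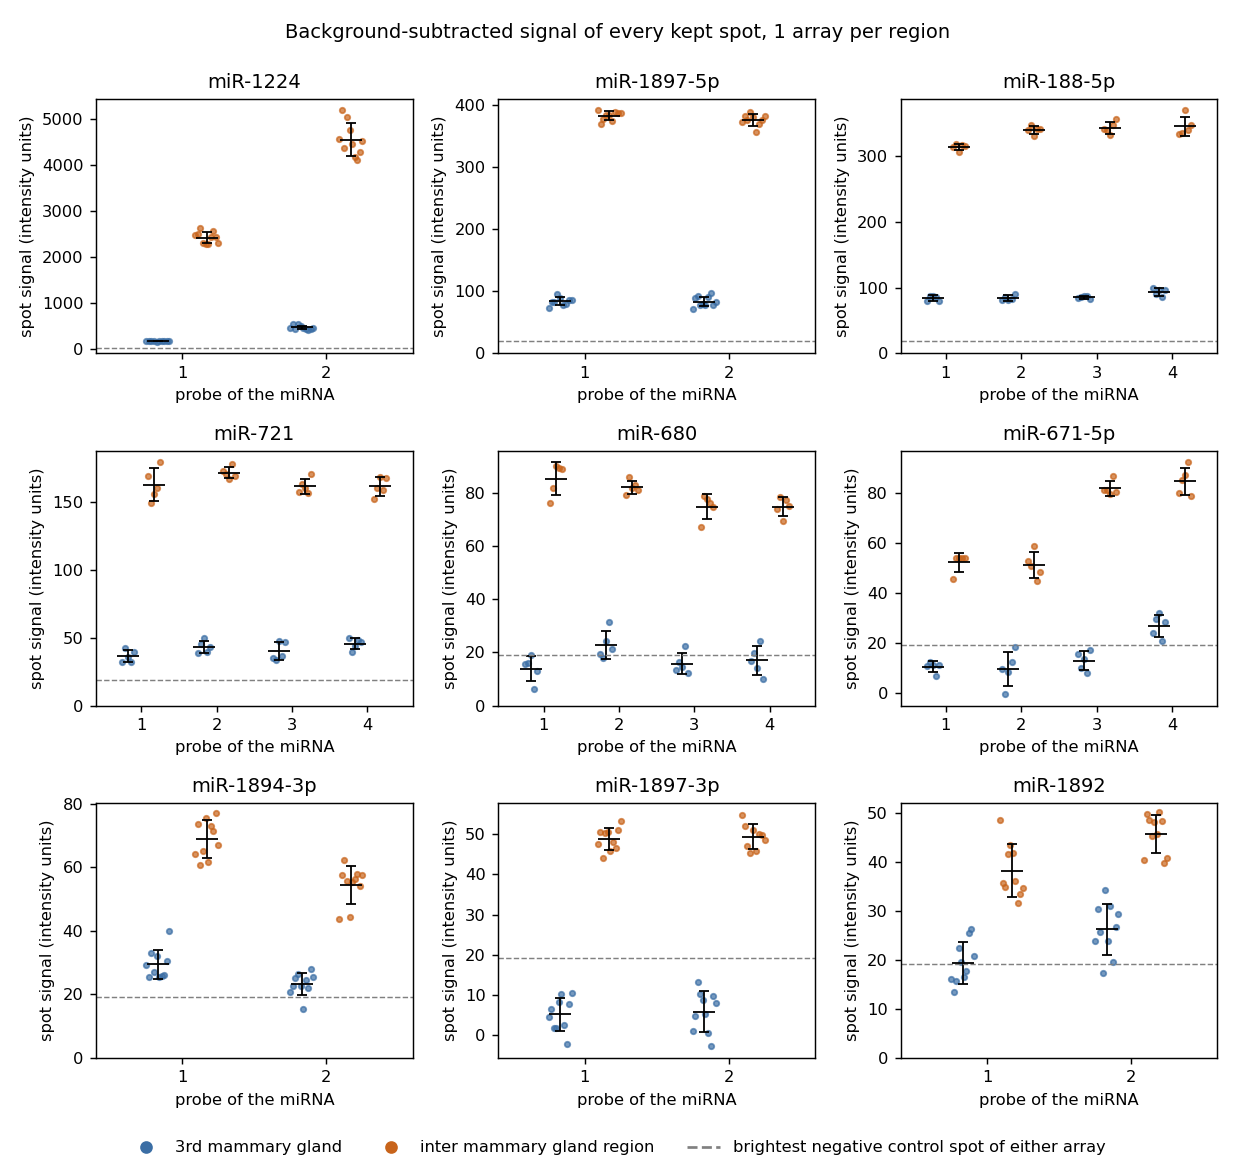
Background-subtracted signal of every kept spot (y axis, intensity units, own scale for each miRNA) by probe (x axis), for the gland (blue) and the flank (orange), with the mean and SD over spots in black and the brightest negative control spot dashed. The spots of the regions do not overlap on any of the 26 probes, and the members were chosen for this difference. After scaling, every probe was apart in this way for 12.8% of the 312 miRNAs detected on at least 1 array. All 20 gland spots of miR-1897-3p lie at or below the dashed line.

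miR-680 and miR-671-5p, the latter known for its action on Cdr1as, stood near the background in the gland. The 4 probe means of miR-680 were 14.0, 15.7, 17.0 and 22.9 there, where 1 of 20 spots was well above background and 9 exceeded every negative control spot. In the flank they ran from 74.9 to 85.5, and all 20 spots were well above background. With the scaling used here miR-680 was at least 2.83-fold higher in the flank, the highest bound of the 16 miRNAs detected there only. Its bound was 2.54 to 2.61 under the other scalings and 1.57 after another background correction (normexp). The probe means of miR-671-5p were 10.6, 9.84, 13.0 and 27.1 in the gland, with 2 of 20 spots well above background and 7 above every negative control spot, and 52.5, 51.2, 82.0 and 84.8 in the flank. The bound for miR-671-5p was 2.41-fold.

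The probes of both miRNAs gave uneven quotients. The probe quotients of miR-671-5p ran from 3.42 to 6.88 (1.01 apart on the log2 scale, SE over spots 0.22) and those of miR-680 from 3.94 to 6.71 (0.77 apart, SE 0.27). Each SE is that of the extreme pair of probes, picked by its values. The divisors of these quotients are signals near the background, so the bounds are given as the folds of these miRNAs.

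miR-1894-3p and miR-1892 had the lowest quotients of measured signals, 2.56 and 2.01. miR-1894-3p averaged 29.4 ± 4.62 and 23.3 ± 3.56 (SD, 10 spots each) on its probes in the gland and 68.9 ± 5.91 and 54.4 ± 5.93 (SD, 10 spots each) in the flank. In the gland 5 of its 20 spots stood well above background, and 19 exceeded every negative control spot. It was at least 2.20-fold higher in the flank, and its probes both gave a quotient of 2.56. miR-1892 averaged 19.4 ± 4.30 and 26.2 ± 5.27 (SD, 10 spots each) in the gland and 38.2 ± 5.38 and 45.7 ± 3.97 (SD, 10 spots each) in the flank. Its bound of 1.498 lay just under 1.5-fold, so miR-1892 is the member that did not pass, although its own signals gave quotients of 2.15 and 1.91 on the probes.

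**Figure D3:**
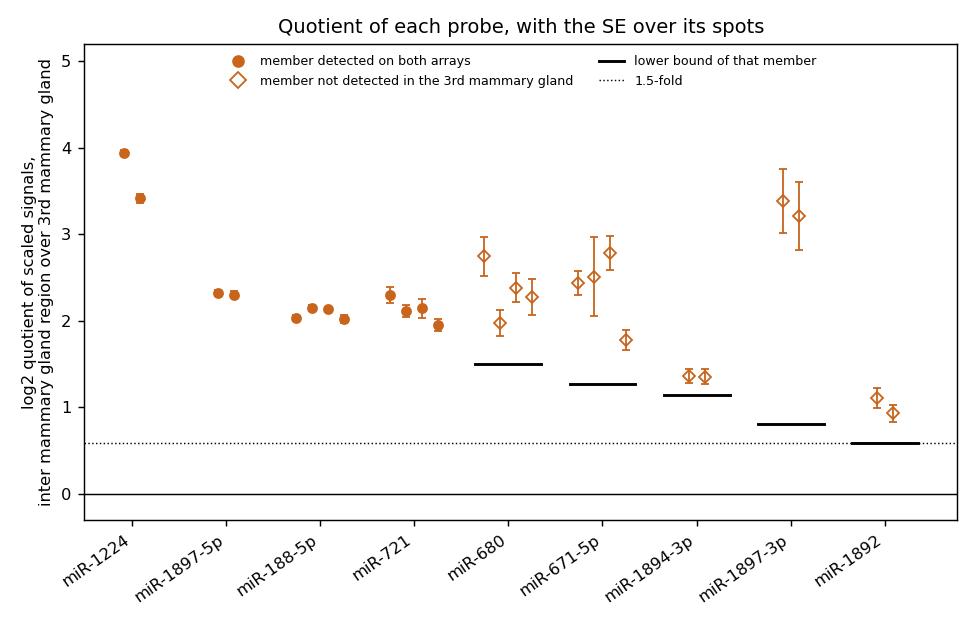
Log2 quotient of each probe, flank over gland (y axis), by miRNA (x axis), with the SE over the probe's spots, which is technical only. Filled circles are the 4 members detected in both regions, open diamonds the 5 not detected in the gland with their lower bound as a bar; all 26 probes lie above 0, from 1.91-fold to 15.3-fold, and the bound of miR-1892 lies at the dotted 1.5-fold line.

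The members were brighter in the flank in every part of the array. Of 176 positions kept on both arrays, 176 were brighter in the flank after scaling (100%), against 42.7% of 13177 positions of the other miRNAs. The positions of the members lay over the whole array. With the array split at its middle row and middle column, the 4 sectors held 34, 43, 46 and 53 of them, with spots of all 9 members in each. On all 26 probes, and so for all 9 members, the lowest spot of the flank exceeded the highest of the gland after scaling, as it did for 12.8% of the 312 miRNAs detected on at least 1 array. The members were chosen as brighter in the flank on these arrays, so these shares follow from the choice and nothing is read from them. Spots of an array repeat the measurement of 1 RNA sample, so the shares describe the arrays and not the variation between embryos.

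The software's own total per miRNA, which the authors deposited, has a scale of its own and left out probes of the members near background. For 6 of the 9 the total was the sum of all probes in each region. For miR-680 it was 7.58 in the gland, the value of 1 probe, and 102.9 in the flank, the sum of 4 probes, an unscaled quotient of 13.6. With all 4 probes summed in each region the quotient was 4.47. For miR-671-5p the total of the gland, 8.98, was likewise 1 probe, against 87.6 in the flank from 4 probes, and the quotient of 9.76 became 4.37 with all 4 probes. miR-1897-3p was called not detected in the gland and listed at the stand-in 0.1, whereas its probe totals summed to 7.26 there and to 63.6 in the flank, a quotient of 8.77. By the software's call, 8 of the 9 members were detected in both regions.

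Apart from the miR-1897 pair, of which both strands are members, the array names opposite strands for 3 members. These, miR-188-3p, miR-671-3p and miR-1894-5p, were detected in neither region, with signals of 3.49, -4.17 and -4.62 in the gland and 2.12, -6.45 and -4.12 in the flank. Of the 8 other miRNAs of the miR-188 cluster that were looked for, 7 were on the array and 5 were detected in both regions. None of the 5 passed 1.5-fold, where 9.15% of the 284 miRNAs detected in both regions did, so nothing is read from that count. Their quotients ran from 1.13 (miR-500) to 1.31 (miR-532-3p), with a median log2 quotient of 0.25. The quotient of miR-188-5p was 4.24, but it was itself chosen as brighter in the flank. The other mirtrons that were looked for, miR-702, miR-877 and miR-877*, were detected in neither region. Their signals were 4.18, 14.5 and 5.56 in the gland and 5.79, 13.3 and 4.98 in the flank.

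Of the markers of cell types that these samples could hold, the 4 listed for striated muscle were higher in the flank. They (among them miR-1, miR-133a and miR-206) were 2.17- to 2.69-fold higher, with summed signals of 1646 in the gland and 3610 in the flank. Of all 284 miRNAs detected in both regions, 9.15% were higher in the flank by 1.5-fold or more and 2.11% lower. Other muscle miRNAs, named after their values were seen, were mixed. By its bound miR-133a* passed 1.5-fold and miR-499 did not (1.28), both detected in the flank only. miR-208a and miR-208b were detected in neither region. Of 7 miRNAs of skin epithelium (among them miR-200c, miR-203 and miR-205) and 4 of blood (among them miR-144, miR-223 and miR-451), all were detected in both regions and 0 passed 1.5-fold in either direction, with quotients of 0.702 to 1.24 and 0.736 to 1.08. Their summed signals were 10955 and 6164 in the gland and 9530 and 4274 in the flank, and no marker was at 0 in either region. The part of muscle tissue in the difference of the members was not tested.

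Among the miRNAs detected in both regions, those with a quotient nearest to the median of the 4 members were miR-483 (5.13), miR-2135 (5.48), miR-206 (2.69), miR-1982* (2.57) and miR-133b (2.40), at distances of 0.14 to 0.96 on the log2 scale over the 2 arrays. The miR-2132 to miR-2146 series with miR-689 also held very high values. Of its 13 miRNAs, 11 were detected in both regions, 7 were higher in the flank by 1.5-fold or more and 2 lower by as much. Over the 284 miRNAs detected in both regions these shares were 9.15% and 2.11%. The quotients of the series ran from 0.514 to 30.2. Beyond the members, 11 miRNAs were detected in the flank only. 1 of them, miR-133a* (also named after its value was seen), passed 1.5-fold at 1.695, and 6 gave no fold because their signal did not exceed the floor.

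**Figure D4:**
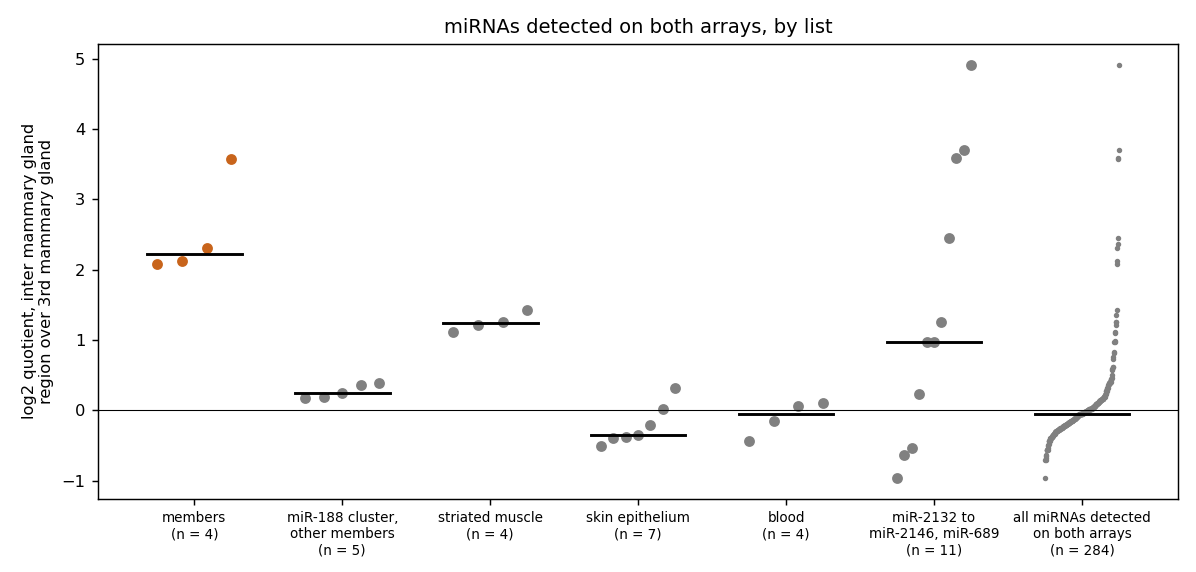
Log2 quotient of each miRNA detected in both regions (points), flank over gland (y axis), by list (x axis), with the median as a bar. The 4 members range from 4.24-fold to 11.9-fold, the 5 detected neighbours of miR-188 from 1.13-fold to 1.31-fold, and the median of all 284 miRNAs is -0.05.

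The scaling between the arrays moved the split of all miRNAs, while under each of these scalings 8 of the 9 members passed 1.5-fold. With the scaling used here 31 miRNAs of the whole array were at least 1.5-fold higher and 10 lower in the flank (75.6% higher). With no scaling 28 were higher and 19 lower (59.6%), with the median in place of the percentile also 28 and 19 (59.6%), with the percentile taken over all probes instead 27 and 23 (54.0%) and after quantile normalization 27 and 18 (60.0%). For the 284 miRNAs the median log2 quotient was then -0.18, -0.17, -0.21 and -0.17. After normexp background correction 19 were higher and 3 lower (86.4%), and 5 members passed.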

How the data were processed

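Per the file headers, the authors quantified both arrays with Agilent Feature Extraction 10.7.3.1. The deposited intensity of each spot is background-subtracted, linear and not normalized between arrays, and the deposited table holds the total intensity per miRNA, equal to that of the scanner files for 696 of 696 miRNAs. The study's methods name GeneSpring GX for normalization, without a signal column or a floor.

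Control spots were dropped first, then outlier spots (1.67% of miRNA spots in the gland, 2.51% in the flank). Spot intensities were averaged per probe, scaled by the 75th percentile over probes that both arrays detected (786 in the gland, 719 in the flank), and averaged per miRNA. The SE propagates the spread over spots and is technical only. No test was run. Named were all members, their partner strands and neighbours, miRNAs with the same seed, the 5 with the nearest quotient, and at most 3 of each marker list. Members and lists were chosen with earlier results of these data known. Alternatives changed the scaling, the background correction, the call of detection, the filters, the summary over probes, the fold and the floor. The steps were tested on simulated data, where a pass was required for miRNAs detected on both arrays but not for the lower bounds. The array grid names another assembly than the RefSeq table, so all coordinates are those of RefSeq. Python 3.11.15, numpy 2.4.6, pandas 2.3.3, matplotlib 3.10.9, R 4.3.3 and limma 3.58.1 were used.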

Additional observations from a re-analysis of the deposited data

How the results depend on the processing

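No paired analysis was possible because gland and flank have a single array each. Every one of the 102 quotients or bounds of single members computed under 12 alternatives stayed above 1. The members were chosen for this direction, and a bound under 1 would have been left out, so nothing is read from that count. Some of the values repeat the main setting, as where dim miRNAs were left out. The number of members past 1.5-fold, 8 in the main setting, was 5 after normexp (on the median pixel signal with an offset of 50, which draws ratios toward 1 by construction) and 4 with dim miRNAs left out, where only 4 members remained to be counted. It was 7 to 9 otherwise, 7 with a threshold of 2-fold. The number detected in the gland, 4, was 8 by the software's own call. The median log2 quotient of the members detected in both regions, 2.22, was 2.09 with no scaling, 2.06 with the percentile taken over all probes, 2.10 with the median in its place, 2.11 after quantile normalization, 2.26 with the total signals (8 members), 1.54 after normexp, 2.28 with detection asked of every spot, and 2.30 with the mean of the negative controls subtracted, an alternative chosen after seeing the data. Normexp took miR-671-5p, miR-1894-3p and miR-1897-3p under 1.5-fold (1.45, 1.38 and 1.25) and the bound of miR-680 to 1.57. Signal over background limits the 5 members not detected in the gland.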
